A study of Mus musculus with 8 samples.

Results

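Epithelial cells were taken from tongues of mice with inducible transgenes for both the viral oncogenes E6-E7 and a constitutively active YAP (group EY). They were compared with epithelial cells of mice with the active YAP transgene alone (group Y), which asks what E6-E7 adds once YAP is active. The comparison took 4487 of the 42550 cell barcodes of the series, 2197 in EY and 2290 in Y, from 2 single cell RNA libraries per group. A cell was kept when it had 1000 to 5500 detected genes, at most 30000 UMIs (unique molecular identifiers, counted RNA molecules), at most 7% of UMIs from mitochondrial genes, no UMI of Ptprc (CD45, the leukocyte surface phosphatase) and at least 0.5% of its UMIs from the keratin genes Krt5, Krt14, Krt15, Krt13 and Krt6a together. These 6 genes define the cells, so their levels below are descriptions of the cells chosen. The series holds 8 libraries of viable sorted tongue cells, 2 in each of 4 genotypes, all taken 15 days after transgene induction from littermates of 8 to 16 weeks. All mice carried Krt14-CreERT and LSL-rtTA, a tamoxifen-activated recombinase driven by the basal keratin gene Krt14 and the doxycycline-responsive activator it switches on, and by the study's methods also a tetON_H2B-GFP reporter. N mice carried only these alleles, E mice added tetON_E6-E7, Y mice added tetON_YAP1S127A, a YAP1 that lacks an inhibitory phosphorylation site, and EY mice carried both. All groups received tamoxifen in the tongue and doxycycline in the chow, so the transgenes could be switched on only in cells that had used the Krt14 promoter and in their descendants. Sequences of the transgenes themselves were not among the counted features, so whether a given kept cell expressed them is not known.

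E6 and E7 are the oncoproteins of high-risk papillomaviruses: E6 directs the degradation of p53, and E7 releases E2F transcription factors by inactivating RB and its relatives, so that E2F target genes of DNA replication are expressed. YAP is the transcriptional coactivator restrained by the Hippo kinases, and with TEAD factors it drives growth and progenitor programs in stratified epithelium. The tongue surface is such an epithelium, with a proliferating basal layer and differentiating layers that form filiform papillae.

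The 4 libraries were unequal in size. Y library 1 gave 1289 kept cells and Y library 2 gave 1001, EY library 2 gave 2027, and EY library 1 gave 170 cells, 9.35% of its cells within the gene, UMI and mitochondrial limits, 1562 of which had Ptprc UMIs. The upper limits on genes and UMIs removed cells that met every other condition. These were 311 in EY library 1, more than it kept, 435 in EY library 2, 608 in Y library 1 and 587 in Y library 2. Summed UMIs over kept cells ranged from 2454816 in EY library 1 to 37020044 in EY library 2, and median UMIs per kept cell from 13534.5 to 20157. Levels are given as CPM, the UMIs of a gene scaled to a common library total (counts per 1e6 kept UMIs, with TMM scaling), in the order library 1, library 2 of each group, and a CPM summed over cells cannot tell more cells with a transcript from more transcript per cell. Epithelial markers were present throughout, among them Epcam (193 and 209 CPM in Y against 207 and 251 CPM in EY) and Cdh1 (99.6 and 115 CPM in Y against 103 and 101 CPM in EY). The 10 marker genes of neutrophils summed to 150.0 and 46.9 CPM in Y but 2294 and 676 CPM in EY, most of it S100a8 and S100a9, which keratinocytes also make. Of the 9 tested, 6 were higher in EY at an unadjusted p under 0.05, Ngp stood at 0.509 and 0 CPM in Y against 37.4 and 15.5 CPM in EY, and Camp, Ngp and Ly6g were at 0 in Y library 2. Dcn, the only abundant gene among the fibroblast markers, stood at 821 and 332 CPM in Y against 251 and 28.4 CPM in EY. Y library 2 was almost without the Y-linked transcript Ddx3y (0.0503 CPM against 25.05 to 41.8 CPM in the other 3 libraries), and no pair of these 4 libraries shared more than 2 cell barcodes. The EY libraries differed from each other by a median absolute log2 difference of 0.453 and the Y libraries by 0.244.

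How far reads of the YAP transgene are counted as mouse Yap1 is not given in the sources used here. Yap1 stood at 215 and 447 CPM in Y against 216 and 174 CPM in EY, and at 34.5 and 41.7 CPM in N against 31.5 and 46.1 CPM in E. All 4 libraries with the YAP allele were above all 4 without it, and the difference between EY and Y was -0.77 ± 0.35 (SE) on the log2 scale, with 1 Y library above the other 3 (edgeR adjusted p = 0.23). Mcm2, a subunit of the replicative helicase and an E2F target, read 14.1 and 26.9 CPM in Y against 37.4 and 45.4 CPM in EY, and 12.2 and 5.72 CPM in N against 38.6 and 25.5 CPM in E, a difference between EY and Y of 1.03 ± 0.42 (SE) (edgeR adjusted p = 0.20). Cdkn1a, which encodes the p53-induced inhibitor p21, lay at 205 and 244 CPM in Y against 205 and 192 CPM in EY, with Y library 1 and EY library 1 nearly equal and a log2 difference of -0.18 ± 0.37 (SE) (edgeR adjusted p = 0.80). Cdkn2a, the gene of p16, was too rare to test: 1 and 1 UMIs were counted in Y and 0 and 13 in EY, and the 0 in EY library 1 allows up to 1.22 CPM.

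Across 13555 genes tested with edgeR's quasi-likelihood test, 6 differed between EY and Y at a Benjamini-Hochberg adjusted p under 0.05 (0.0443% of genes). Zcwpw1, Stag3 and Lgals1 rose (0.0221%) and Paqr5, Exph5 and Cspg4 fell (0.0221%) when E6-E7 was added. Many more genes met looser criteria than the adjusted threshold. With 2 libraries against 2, both libraries of a group often lie on 1 side without any true difference. The counts of such genes are therefore not counts of changed genes. Both EY libraries lay above both Y libraries at 2962 genes (21.9%) and below them at 3825 genes (28.2%), unadjusted p was under 0.05 at 1364 genes higher in EY (10.1%) and 1805 lower (13.3%), and 898 genes had an adjusted p under 0.1. DESeq2 on the same sums called 438 genes higher (3.36%) and 442 lower (3.39%) of 13029, the 6 included. EY library 1, the library of 170 cells, decided much of the count: without it edgeR called 616 genes higher (4.32%) and 840 lower (5.89%) of 14254, again with the 6 included, whereas without EY library 2 or without Y library 2 it called 0 (1713 and 2598 at an unadjusted p under 0.05), and without Y library 1 it called 4 others. The p-values measure only the spread between these libraries, 2 mice per group by the study's methods, and the fit took the spread from all 8 libraries. The title of N library 2 holds 2 numbers, and whether that library pools 2 animals is not stated. Fitted on the EY and Y libraries alone, edgeR called 0 genes (2155 had an unadjusted p under 0.05).

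**Figure D1:**
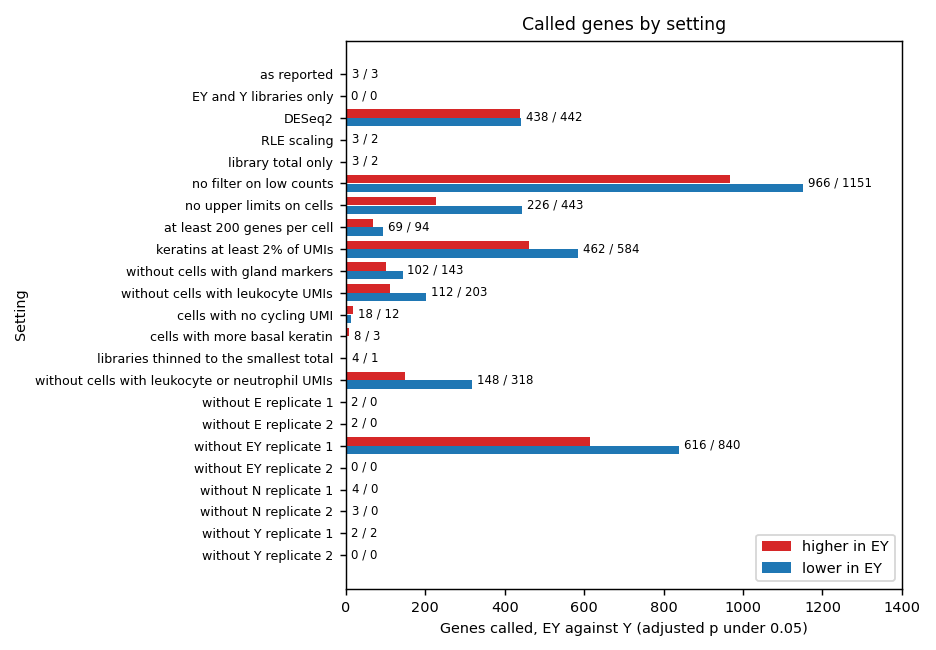
Number of genes called between EY and Y (horizontal axis, adjusted p under 0.05) for the values as reported and for each alternative setting (vertical axis), with genes higher in EY in red, genes lower in EY in blue and both counts printed at the bars (higher / lower). The reported fit gave 3 and 3, and the counts ran from 0 up to 966 and 1151 when no filter on low counts was used.

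The 3 genes that rose were 2 meiotic genes and a galectin. Zcwpw1 (ENSMUSG00000037108 on chromosome 5, 137787798 to 137822621, GRCm38), which encodes a reader of histone methylation that acts in the repair of meiotic DNA breaks, was at 1.19 and 1.11 CPM in Y against 20.7 and 34.6 CPM in EY. Its log2 fold change was 4.63 ± 0.45 (SE) (edgeR adjusted p = 0.035), and at least 1 UMI was found in 1.86% and 2.10% of kept Y cells against 21.8% and 39.6% of kept EY cells. In Ptprc-positive cells of the same libraries, with median UMIs of 5100 to 10800.5 per cell, the share was 3.49%, 2.35%, 2.75% and 5.40%. With every cell thinned to 5000 UMIs, kept cells gave 0.480% and 0.411% in Y and 8.87% and 13.6% in EY, so the groups stayed apart at equal depth. Stag3 (ENSMUSG00000036928 on chromosome 5, 138280240 to 138312393), the gene of a cohesin subunit used in meiosis, had 4 and 2 UMIs in Y against 27 and 583 UMIs in EY, or 0.170 and 0.101 CPM in Y against 10.97 and 16.5 CPM in EY. It was nearly unread in Y and present in 14.7% and 23.04% of kept EY cells, with a log2 fold change of 6.64 ± 0.61 (SE) (edgeR adjusted p = 0.032) and a ratio of pooled UMIs of 117 (53.5 to 321), where the interval covers counting error only. Lgals1 (ENSMUSG00000068220 on chromosome 15, 78926725 to 78930465), the gene of galectin-1, a secreted lectin that binds beta-galactosides, was at 35.3 and 31.5 CPM in Y against 163 and 181 CPM in EY, a log2 fold change of 2.37 ± 0.18 (SE) (edgeR adjusted p = 0.030). At least 1 Lgals1 UMI was found in 35.1% and 32.3% of kept Y cells against 34.7% and 62.1% of kept EY cells, so EY library 1 was not above Y by this share. With cells thinned to 5000 UMIs the shares were 13.9% and 11.6% in Y against 19.4% and 37.5% in EY. Its level in the Ptprc-positive cells was 10.04 times that in the kept cells. In kept cells with no UMI of leukocyte or neutrophil genes, only 15 in EY library 1 and 1048 in EY library 2, the log2 fold change was 2.95 (edgeR adjusted p = 0.0063). When cells above 5500 genes or 30000 UMIs were let in, Lgals1 had a log2 fold change of 1.21 and was not called (edgeR adjusted p = 0.14). Zcwpw1 overlaps Pilra on the other strand. Each of the 6 calls held without EY library 1 and was lost without EY library 2, Y library 1 or Y library 2. Leaving out an N or an E library kept 2 of the 6 each time, Lgals1 with Zcwpw1 without either E library and Lgals1 with Stag3 without either N library, and lost all 3 falls. Among cells with no cycling UMI 2 of the 6 held, Zcwpw1 and Stag3, and with libraries thinned to the smallest total Lgals1 and Paqr5 did. The set with no cycling UMI was small in EY, at 25 and 82 cells against 426 and 292 in Y.

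The genes that fell encode a membrane receptor, a vesicle protein and a proteoglycan. Paqr5 (ENSMUSG00000032278 on chromosome 9, 61953481 to 62026856), the gene of a membrane progestin receptor, read 39.6 and 45.6 CPM in Y against 11.8 and 9.53 CPM in EY, a log2 fold change of -2.04 ± 0.17 (SE) (edgeR adjusted p = 0.030). It was found in 44.1% and 45.5% of kept Y cells and in 9.41% and 14.01% of kept EY cells, and all 4 values of N and E lay between the groups (34.2 and 33.2 CPM in N against 27.6 and 25.9 CPM in E). Exph5 (ENSMUSG00000034584 on chromosome 9, 53301670 to 53377514), whose product exophilin-5 binds the Rab27 GTPases of vesicle transport in keratinocytes, stood at 29.3 and 31.3 CPM in Y against 11.4 and 10.5 CPM in EY. Its log2 fold change was -1.49 ± 0.16 (SE) (edgeR adjusted p = 0.046), the nearest of the 6 to the threshold. Cspg4 (ENSMUSG00000032911 on chromosome 9, 56865033 to 56899870), the gene of the proteoglycan NG2, was low in both groups, at 14.6 and 14.4 CPM in Y against 3.66 and 3.12 CPM in EY, with a log2 fold change of -2.16 ± 0.21 (SE) (edgeR adjusted p = 0.035). Without the upper limits per cell the Cspg4 difference was -1.29 and was not called (edgeR adjusted p = 0.054).

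Sequences at the start sites of 4 of these genes are shown because E2F factors, which E7 releases, act at promoters, and because Zcwpw1 and Stag3 rose together. The windows run from 250 bases before to 30 bases after the start in RefSeq (GRCm38.p6): chr5:137787552-137787831 on the plus strand for Zcwpw1, chr5:138280259-138280538 plus for Stag3, chr9:62026761-62027040 minus for Paqr5 and chr9:53301420-53301699 plus for Exph5, each written 5′ to 3′ along the gene. Capitals mark every match to the E2F letters TTCCCGC or else TTGGCGC or else TTCGCGC or else TTGCCGC, to the CHR letters TTTGAA or to the E-box letters CACGTG, on either strand, and no match overlapped another.
Zcwpw1: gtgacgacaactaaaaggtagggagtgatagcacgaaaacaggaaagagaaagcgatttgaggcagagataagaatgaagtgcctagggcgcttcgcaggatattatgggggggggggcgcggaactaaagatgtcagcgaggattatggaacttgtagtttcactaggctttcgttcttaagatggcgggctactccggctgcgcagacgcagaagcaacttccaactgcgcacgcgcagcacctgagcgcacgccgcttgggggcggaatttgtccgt
Stag3: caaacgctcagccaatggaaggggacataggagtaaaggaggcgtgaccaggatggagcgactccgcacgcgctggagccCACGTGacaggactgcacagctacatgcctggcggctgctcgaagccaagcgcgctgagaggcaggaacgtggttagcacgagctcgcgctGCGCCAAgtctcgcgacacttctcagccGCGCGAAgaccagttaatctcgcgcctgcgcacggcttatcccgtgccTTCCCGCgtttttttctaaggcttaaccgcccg
Paqr5: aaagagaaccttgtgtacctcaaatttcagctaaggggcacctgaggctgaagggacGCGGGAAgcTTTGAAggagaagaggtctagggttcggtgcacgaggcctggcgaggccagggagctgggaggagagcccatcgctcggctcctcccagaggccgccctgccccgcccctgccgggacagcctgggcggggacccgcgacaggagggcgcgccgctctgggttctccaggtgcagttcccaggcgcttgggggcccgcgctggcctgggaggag
Exph5: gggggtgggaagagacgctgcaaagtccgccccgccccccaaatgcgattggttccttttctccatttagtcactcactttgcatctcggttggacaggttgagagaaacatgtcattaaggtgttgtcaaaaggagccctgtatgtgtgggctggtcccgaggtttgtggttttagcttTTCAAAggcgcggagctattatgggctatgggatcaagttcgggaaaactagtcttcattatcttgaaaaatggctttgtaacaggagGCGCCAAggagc
The Zcwpw1 window, of 2 in RefSeq the nearer to the gene start given above, held none of these letters. Stag3 held 3 E2F matches, which began 79, 51 and 3 bases before the RefSeq start, and an E-box 170 bases before it. That RefSeq start lies 269 bases past the Stag3 gene start given above, so the whole Stag3 window lies inside the gene by that annotation. Paqr5, which fell, also held an E2F match and a CHR match, as did Exph5, and the Cspg4 window held none. Lgals1 had no entry in the table. Shares over genes were counted in the full RefSeq windows, which run further past the start than those printed. In these an E2F match was present for 9.72% of 27025 genes and for 17.3% of the 10337 tested genes with a window, and the CHR letters for 18.1% and 11.96%. Of the G1/S genes 62.2% held E2F letters and of the G2/M genes 73.2% held CHR letters. A match describes letters only.

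Under the rule for named genes, Zcwpw1 was the 1 called rise and Paqr5 and Exph5 the 2 called falls, because Stag3 and Cspg4 were under 20 CPM and Lgals1 was over 5 times higher in Ptprc-positive cells; these 3 are named after their values were seen. The other named genes were the next by p in each direction among genes whose EY and Y libraries did not overlap. They were not called, with edgeR adjusted p of 0.059 to 0.060 for all of them. Each kept its sign in 22 of 22 alternative settings. On the higher side, Krt18 (chromosome 15, 102028180 to 102032027), a keratin of simple epithelium, was at 13.9 and 8.15 CPM in Y against 194 and 82.1 CPM in EY, with UMIs in 28.2% and 20.6% of EY cells. Nes (chromosome 3, 87971078 to 87980451), the intermediate filament nestin, had 2 and 8 UMIs in Y against 24 and 1137 UMIs in EY and so a log2 fold change of 6.54 ± 0.90 (SE). Tm4sf1 (chromosome 3, 57285611 to 57301988), a membrane protein of invasive and endothelial cells, stood at 1.74 and 3.37 CPM in Y against 41.8 and 26.6 CPM in EY. In all 3 genes EY was above Y by over 3 log2 units among the kept cells. When the cells above the upper limits were let in, the log2 fold changes were 1.38 for Krt18, 1.36 for Tm4sf1 and 4.80 for Nes. Without active YAP, Krt18 was at 17.5 and 22.8 CPM in N against 16.8 and 20 CPM in E, Tm4sf1 at 1.30 and 1.91 CPM in N against 1.51 and 0.638 CPM in E and Nes at 0.119 and 0.238 CPM in N against 6.56 and 2.39 CPM in E, so E lay above N for Nes but not for the other two. Anxa1 (chromosome 19, 20373428 to 20390944), a calcium-dependent membrane-binding protein, was abundant in both groups and stood at 491 and 459 CPM in Y against 1218 and 1229 CPM in EY. Bcl3 (chromosome 7, 19808462 to 19822770), a nuclear partner of NF-kappaB, read 8.52 and 8.55 CPM in Y against 19.5 and 24.4 CPM in EY. The EY libraries were close to each other in these genes. Naf1 (chromosome 8, 66860217 to 66890564), an assembly factor of small nucleolar RNPs and telomerase, was at 28.8 and 26.96 CPM in Y against 52.4 and 56.1 CPM in EY. Ttc39b (chromosome 4, 83220300 to 83324255) was at 18.01 and 17.1 CPM in Y against 35.3 and 38.5 CPM in EY. Ifitm3 (chromosome 7, 141009586 to 141010770), an interferon-induced membrane protein that hinders viral entry, lay at 1012 and 1101 CPM in Y against 2039 and 2037 CPM in EY. Ly6e (chromosome 15, 74955051 to 74959905), a membrane-anchored protein also induced by interferon, lay at 304 and 338 CPM in Y against 596 and 762 CPM in EY. H2-Q6 (chromosome 17, 35424850 to 35430055), a class I gene of the Qa region with close paralogs that reads may be shared with, stood at 6.99 and 10.6 CPM in Y against 29.3 and 33.3 CPM in EY. With the cells above the upper limits, the log2 fold changes of Anxa1, Bcl3, Ttc39b, Ifitm3 and Ly6e were also over 1.5 times smaller, at 0.46, 0.88, 0.69, 0.55 and 0.58.

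On the lower side were 3 ephrins, membrane-bound ligands of the Eph receptors, and several genes of cell structure and signalling. Efnb2 (chromosome 8, 8617434 to 8661242) was at 30.1 and 27.97 CPM in Y against 11.8 and 9.02 CPM in EY. Efna3 (chromosome 3, 89313899 to 89322965) was at 30.4 and 33.5 CPM in Y against 11.8 and 14.6 CPM in EY. Its neighbour Efna4 (chromosome 3, 89333390 to 89338028) was at 23.3 and 20.4 CPM in Y against 9.75 and 8.82 CPM in EY. In each of the 3 ephrins both EY libraries were below both Y libraries, as the rule for named genes required. Apcdd1, an inhibitor of Wnt signalling, stood at 56.5 and 59.7 CPM in Y against 19.1 and 10.98 CPM in EY, a log2 fold change of -2.05 ± 0.30 (SE) that was -1.21 with the cells above the upper limits. Afap1l2 (chromosome 19, 56912361 to 57008228), an adaptor of SRC signalling, was at 34.97 and 41.2 CPM in Y against 13.8 and 11.4 CPM in EY, and Y was above N and E (16.5 and 19.2 CPM in N against 14.4 and 17.5 CPM in E). Cd5 (chromosome 19, 10717116 to 10739002), best known as a receptor of T cells, was read in 61.6% and 62.4% of kept Y cells and 25.9% and 31.9% of kept EY cells, at 64.3 and 67.4 CPM in Y against 32.5 and 24.6 CPM in EY. The T cell markers Cd3d, Cd3e and Cd3g each stayed under 4 CPM in all 4 libraries, and the 10 T and NK markers summed to 27.9 and 6.69 CPM in Y and 21.1 and 34.7 CPM in EY. The long noncoding RNA Gm26802 (chromosome 7, 19298260 to 19300770) lay at 30.6 and 17.9 CPM in Y against 4.88 and 2.98 CPM in EY. Zfp185 (chromosome X, 72987339 to 73031543), a LIM domain protein, lay at 32.8 and 32.99 CPM in Y against 15.8 and 14.1 CPM in EY. Ro60 (chromosome 1, 143750790 to 143777068), which binds the small Y RNAs, lay at 33.1 and 32.9 CPM in Y against 16.7 and 13.5 CPM in EY. Fryl (chromosome 5, 73019987 to 73256619), a relative of the morphogenesis gene furry, lay at 29.6 and 27.2 CPM in Y against 15.4 and 14.8 CPM in EY, the smallest log2 difference among these genes (-0.92).

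**Figure D2:**
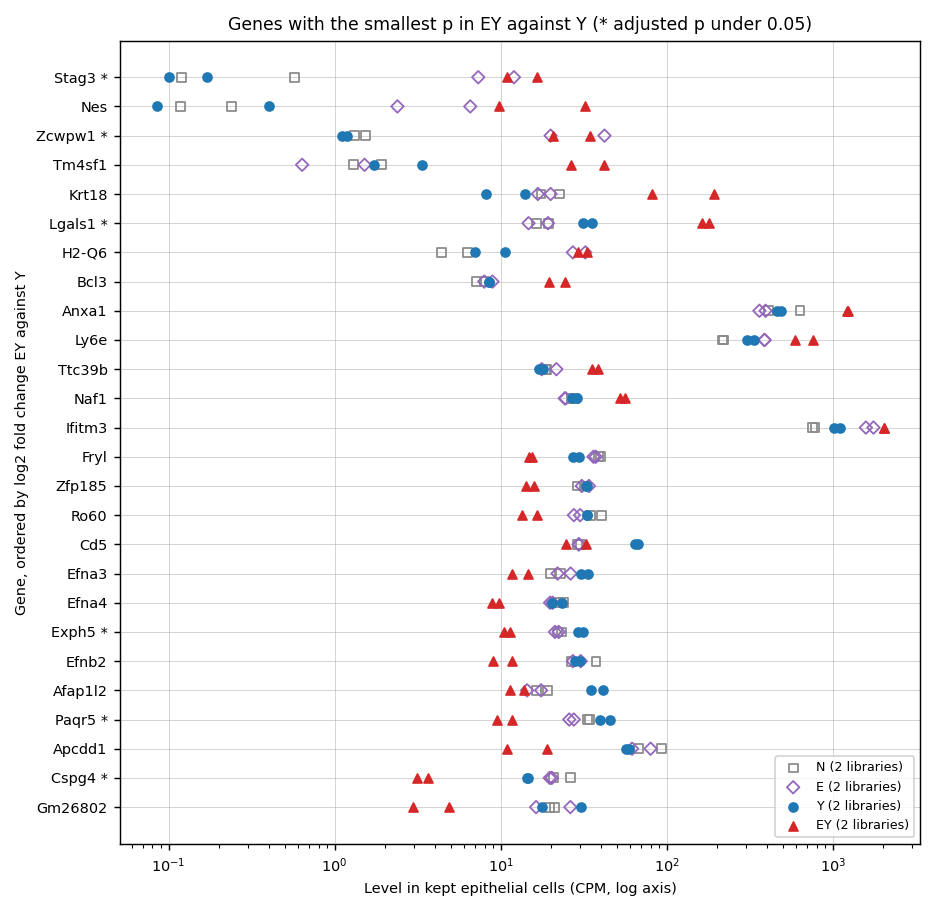
CPM of 26 genes named by p (vertical axis, ordered by log2 fold change) in each library on a log axis, with open squares for N, open diamonds for E, filled circles for Y and triangles for EY, 2 libraries each, and asterisks at the 6 called genes. In every gene the 2 triangles lie on 1 side of the 2 filled circles, which the rule required of all but Stag3, Cspg4 and Lgals1. For Stag3, Nes, Zcwpw1, H2-Q6, Ly6e and Ifitm3 the E libraries also lie above the N libraries.

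Genes of the germ line and of meiosis, which are silent in most somatic epithelium, included Zcwpw1 and Stag3. Of 40 listed genes 16 were expressed enough to test, and 24 were not. Members can reach the test through the group in which they are high, so the 16 are no measure of the list. Tdrd1, a Tudor-domain protein of the piRNA pathway, had 3 and 0 UMIs in Y against 17 and 689 UMIs in EY, a ratio of pooled UMIs of 271 (92.4 to 1319). Smc1b, a meiotic cohesin subunit, had 2 and 1 UMIs in Y against 28 and 83 UMIs in EY, a ratio of 42.7 (14.2 to 210.0). Both were close to unread in Y, and neither passed the edgeR threshold (adjusted p of 0.059 to 0.060). E against N shares no library with EY against Y. There Zcwpw1 was at 1.54 and 1.31 CPM in N against 42.2 and 20 CPM in E and Stag3 at 0.573 and 0.119 CPM in N against 12.03 and 7.33 CPM in E, both called (log2 fold changes 4.41 and 4.41, edgeR adjusted p of 0.024 and 0.027), among 33 genes called in that comparison (0.243%). Of the 13 tested germ line genes with a start-site window, 5 held E2F letters and 5 an E-box (38.5% each, against 17.3% and 10.3% of tested genes with a window). These 13 come from the 16 that reached the test, so their shares are no measure of the list either, and the difference was not tested.

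Interferon-stimulated genes were higher in EY almost throughout, though none was called. Of 45 tested, 32 were higher and 0 lower at an unadjusted p under 0.05, against 10.1% and 13.3% of all genes. Both EY libraries were above both Y libraries for 42 (93.3%, against 21.9% of all genes). Among the 45, edgeR called 0 and DESeq2 called 23 higher. DESeq2 called 3.36% of all genes higher and 3.39% lower, and these shares of all genes apply beside every list below. Their median log2 fold change was 1.36 and ran from 0.69 to 1.45, with the lowest value without the upper limits per cell. Oas1a, an oligoadenylate synthetase that senses double-stranded RNA, was at 11.1 and 17.3 CPM in Y against 41.03 and 41.2 CPM in EY. Ifi35, an interferon-induced leucine zipper protein, was at 28.9 and 35.3 CPM in Y against 72.3 and 80.6 CPM in EY. Dhx58, the RNA helicase LGP2, was at 4.45 and 3.57 CPM in Y against 11.8 and 11.8 CPM in EY. For these 3 and Ly6e the groups did not overlap (edgeR adjusted p of 0.059 to 0.060). Up to 4 genes per list were named for the smallest p, so their separation follows from that choice. Genes that load and present peptides on MHC class I lay on the same side: 10 of 20 were higher and 0 lower at an unadjusted p under 0.05, edgeR called 0, DESeq2 called 9 higher, and the median was 0.76. Psmb10, an immunoproteasome subunit, read 39.9 and 31.1 CPM in Y against 92.6 and 133 CPM in EY. H2-Q7, a Qa-region class I gene with close paralogs, read 58.2 and 59.5 CPM in Y against 165 and 216 CPM in EY, and both EY libraries were clear of Y in both genes. Tapbp, the loading factor tapasin, read 50.9 and 47.7 CPM in Y against 89.4 and 72.99 CPM in EY. E6-E7 without active YAP gave medians of 2.51 for the interferon list, with 19 of its genes called, and 1.04 for the class I list.

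Keratins of stressed epithelium and barrier alarm genes also had a median above 1. Of 31 tested, 15 were higher and 0 lower at an unadjusted p under 0.05, edgeR called 0, DESeq2 called 12 higher, and the median log2 fold change was 1.41 (from 0.74 to 1.79). Without Krt6a, one of the keratins used to choose the cells, 14 of 30 were higher and the median was 1.42. Krt17, a keratin of wounded and hyperproliferative epidermis, was at 1993 and 2569 CPM in Y against 5733 and 9122 CPM in EY. Il24, a cytokine of the interleukin-20 family that keratinocytes release, stood at 2.84 and 0.704 CPM in Y against 42.7 and 56.5 CPM in EY, and Il19 of the same family at 0.339 and 0.352 CPM in Y against 5.28 and 8.85 CPM in EY. Both cytokine genes were under 3 CPM in Y and in N and E. Lcn2, the siderophore-binding lipocalin that neutrophils also carry, was at 4.28 and 3.67 CPM in Y against 102 and 61.5 CPM in EY, beside the higher neutrophil markers in EY. In cells with no UMI of leukocyte or neutrophil genes, a set of 15 cells in EY library 1 and 1048 in EY library 2, the log2 fold changes were 3.38 for Lcn2, 1.79 for Krt17 and 5.52 for Il24 (edgeR adjusted p of 0.041, 0.015 and 0.022), so these 3 were called there. S100a8, a subunit of calprotectin, stood at 65.3 and 18.8 CPM in Y against 1145 and 389 CPM in EY. S100a9, the other subunit, stood at 54.9 and 21.4 CPM in Y against 903 and 233 CPM in EY, and both genes are among the neutrophil markers, whose part in the difference was not tested. Of the chemokines and leukocyte growth factors, 4 of 19 were higher (21.1%, against 10.1% of all genes) and 0 lower at an unadjusted p under 0.05. For these 19, edgeR called 0, DESeq2 3 higher, and the median was 0.34 (from 0.17 without the upper limits per cell to 0.74 among cells with no cycling UMI). Cxcl3, a neutrophil chemoattractant, was at 3.52 and 1.21 CPM in Y against 115 and 30.8 CPM in EY, and Cxcl5, another, at 4.87 and 0.101 CPM in Y against 81.3 and 20.6 CPM in EY. Of the EY and Y libraries, EY library 1, which had the most neutrophil transcript, was highest for both. In cells without leukocyte or neutrophil UMIs the log2 fold change of Cxcl5 was 1.02 against 4.25 among all kept cells, and that of Cxcl3 was 4.23 against 4.88 (edgeR adjusted p = 0.081). The controls were not uniform, with Cxcl5 at 13.4 and 81.8 CPM in N against 0.470 and 0.159 CPM in E and Cxcl3 at 2.51 and 18.3 CPM in N against 0.174 and 0.0797 CPM in E, and the level of Cxcl3 in Ptprc-positive cells was 11.1 times that in kept cells. Csf3, the granulocyte growth factor G-CSF, had 10 and 0 UMIs in Y against 7 and 338 UMIs in EY. Icam1, an adhesion molecule for leukocytes, was at 95.6 and 67.05 CPM in Y against 211 and 239 CPM in EY.

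**Figure D3:**
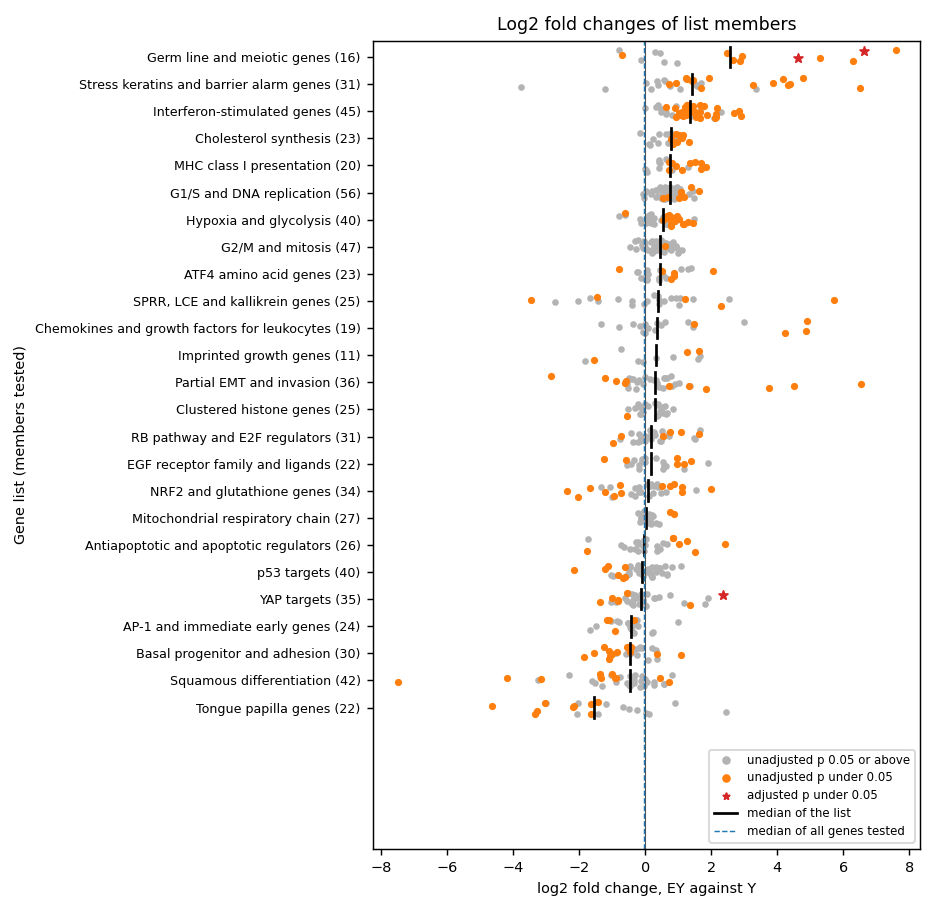
Log2 fold change of EY against Y (horizontal axis) for each tested member of the 25 gene lists (vertical axis, number of tested members in brackets), in grey for an unadjusted p of 0.05 or above, orange for a lower one and a red star where the adjusted p was under 0.05, with a black bar at each list's median and a dashed line at the median of all genes tested (-0.05). The stress and interferon lists have medians of 1.41 and 1.36 and the papilla list one of -1.57, and only 16 of the 40 germ line genes could be tested.

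Genes of the specialised tongue papillae had a negative median. Of 22 tested from 29 listed, 9 were lower and 0 higher at an unadjusted p under 0.05, edgeR called 0, DESeq2 called 4 lower, and the median log2 fold change was -1.57 (from -2.48 to -0.67, the value nearest 0 without EY library 2 and the farthest without EY library 1). Krt24, a suprabasal keratin, was at 64.9 and 50.95 CPM in Y against 15.8 and 1.73 CPM in EY. Notum, a secreted inactivator of Wnt proteins, was at 7.42 and 4.88 CPM in Y against 3.25 and 0.312 CPM in EY. Dlx3, a homeobox factor of differentiating keratinocytes, was at 8.05 and 5.03 CPM in Y against 4.06 and 0.823 CPM in EY. For all 3 EY library 2 had the least transcript and edgeR adjusted p was 0.095 to 0.12. The growth factor Bmp4 stood at 7.502 and 12.6 CPM in Y against 4.06 and 3.60 CPM in EY. Of 30 basal progenitor and adhesion genes, 13 were lower and 2 higher at an unadjusted p under 0.05, edgeR called 0, DESeq2 7 lower and 1 higher, and the median was -0.46 (from -0.69 without EY library 1 to -0.25 without EY library 2). Without Krt5, Krt14 and Krt15, used to choose the cells, 12 of 27 were lower and the median was -0.47. Notch1, the receptor that drives keratinocytes into differentiation, read 107 and 105 CPM in Y against 51.2 and 49.5 CPM in EY. The transcription factor Bcl11b read 118 and 95.4 CPM in Y against 60.1 and 40.6 CPM in EY. Itga2, the collagen-binding integrin subunit, lay at 10.2 and 8.60 CPM in Y against 4.88 and 1.87 CPM in EY. Dst, the gene of the hemidesmosomal plakin BPAG1, lay at 589.8 and 586 CPM in Y against 332 and 160.4 CPM in EY. In each of the 4 both EY libraries were below both Y libraries (edgeR adjusted p of 0.060 to 0.091). Of 42 genes of squamous differentiation, 8 were lower and 2 higher, edgeR called 0, DESeq2 6 lower and 0 higher, and the median was -0.48, which was -0.03 among cells with no UMI of the cycling genes and -0.91 without the upper limits per cell. Without Krt13, used to choose the cells, 7 of 41 were lower (17.1%, against 13.3% of all genes), DESeq2 called 5 lower, and the median was -0.48. Barx2, a homeobox factor, was at 223 and 209 CPM in Y against 131 and 104 CPM in EY. Dsg1a, a desmosomal cadherin of the upper layers, was at 7.76 and 10.8 CPM in Y against 3.25 and 0.596 CPM in EY. Rptn, the matrix protein repetin of the cornified envelope, had 191 and 60 UMIs in Y against 0 and 1 UMIs in EY. These UMIs came from only 5 and 5 kept cells in Y and 0 and 1 in EY. Krt13, one of the 5 keratins used to choose the cells, stood at 3708 and 3224 CPM in Y against 1622 and 1042 CPM in EY. The SPRR, LCE and kallikrein genes had no common direction, with 3 higher and 2 lower of 25 (12% and 8%, against 10.1% and 13.3% of all genes). Their median of 0.40 was -0.78 without the upper limits and -0.57 without EY library 2, and edgeR and DESeq2 called 0 and 0. Sprr2b, the envelope precursor with the smallest p, was at 0.212 and 1.01 CPM in Y against 60.1 and 6.78 CPM in EY. It was read in only 4 and 5 kept cells in Y and in 6 and 32 in EY. Sprr1b was at 26.5 and 31.7 CPM in Y against 55.7 and 76.5 CPM in EY and Sprr2i at 1.36 and 4.22 CPM in Y against 3.25 and 10.6 CPM in EY, and both log2 differences turned negative without the upper limits. Sprr3 lay the other way, at 6.87 and 20.8 CPM in Y against 4.06 and 5.53 CPM in EY (log2 fold change -1.46 ± 0.61 (SE), edgeR adjusted p = 0.21).

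Replication genes, many of them targets of E2F, had a positive median, though few passed an unadjusted test. Of 56 G1/S and replication genes, 8 were higher and 0 lower at an unadjusted p under 0.05 (14.3%, against 10.1% of all genes), edgeR called 0, DESeq2 2 higher, and the median log2 fold change was 0.74, between 0.17 without EY library 2 and 1.75 among cells with no UMI of the cycling genes. That last set held 25 and 82 EY cells, so its values rest on few cells. Mcm3, a helicase subunit, was at 35.9 and 72.2 CPM in Y against 103 and 179 CPM in EY. Rfc3, a subunit of the clamp loader, was at 32.6 and 39.5 CPM in Y against 55.3 and 94.3 CPM in EY. Orc1 of the origin recognition complex was at 2.20 and 4.02 CPM in Y against 8.53 and 10.5 CPM in EY. In these 3 genes and in Pole2, a subunit of polymerase epsilon at 10.8 and 17.1 CPM in Y against 17.9 and 26.3 CPM in EY, EY library 2 was highest, and edgeR adjusted p was 0.11 to 0.18. Of 47 G2/M genes, 1 was higher (2.13%, against 10.1% of all genes) and 0 lower. For these 47, edgeR and DESeq2 called 0, and the median of 0.46 became -0.17 without EY library 2. Cdc20, an activator of the anaphase-promoting complex, was at 59.9 and 68.7 CPM in Y against 93.04 and 159 CPM in EY. Cenpa, the centromeric histone, was at 71.4 and 68.96 CPM in Y against 92.6 and 118 CPM in EY. Ccnb2 and Bub3, a mitotic cyclin and a spindle checkpoint protein, had log2 fold changes of 0.63 and 0.53. The list of clustered histone genes also held H1f0, H2afz and H2afx, which lie outside the histone clusters. It gave 0 higher and 1 lower of 25 with a median of 0.29 (-0.53 without EY library 2), and edgeR and DESeq2 called 0 and 0. The most separated by p was the linker histone H1f0, at 77.6 and 70.6 CPM in Y against 58.1 and 44.1 CPM in EY, and H2afz, Hist1h4i and Hist1h2be had log2 fold changes of 0.38, 0.64 and 0.37.

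The share of cells with UMIs of the G2/M list was larger in both EY libraries than in the other 6. With each cell thinned to 2000 UMIs, at least 2 UMIs of the G2/M list were found in 59.2% and 69.7% of Y cells and in 82.2% and 95.4% of EY cells, against 62.6% and 61.9% in N and 72.6% and 65.1% in E. The EY mean of 88.8% ± 9.31 (SD, n = 2) exceeded the Y mean of 64.4% ± 7.47 by 24.4 percentage points. No test was run on this share, because 2 libraries against 2 cannot give an exact two-sided permutation p under 0.33. The difference was 33.6 points at a minimum of 3 UMIs, 28.4 points with cells thinned to 1000 UMIs and 10.8 points at a minimum of 1 UMI, where most cells of all groups qualified. Without thinning, at least 1 UMI of the list was found in 99.9% of cells of N library 1, so the share is not a count of cycling cells.

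**Figure D4:**
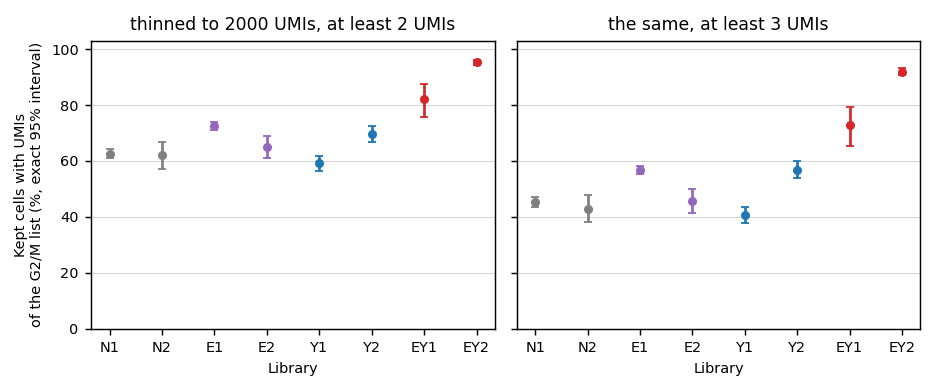
Percent of kept cells (vertical axis) with at least 2 (left) or at least 3 (right) UMIs of the G2/M list after thinning each cell to 2000 UMIs, for each of the 8 libraries (horizontal axis), with exact 95% binomial intervals that cover counting error only. Both EY libraries lie above every other library in both panels, with EY library 2 highest.

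Regulators of the RB pathway and targets of p53 and YAP had medians from -0.13 to 0.19. Of 31 RB and E2F genes, 4 were higher (12.9%) and 2 lower (6.45%) at an unadjusted p under 0.05, against 10.1% and 13.3% of all genes. Among them edgeR called 0, DESeq2 1 higher and 0 lower, with a median of 0.19 (-0.12 without EY library 2). Cdkn1b, the gene of the cyclin-dependent kinase inhibitor p27, was at 54.3 and 50.2 CPM in Y against 32.9 and 29.9 CPM in EY. Rbl2, the gene of the RB relative p130, was at 12.6 and 10.9 CPM in Y against 6.5 and 5.67 CPM in EY. Both lay lower in EY, while the transcription factor gene E2f3 was at 17.8 and 18.6 CPM in Y against 26.8 and 33.5 CPM in EY. Cdkn1c, the imprinted gene of the inhibitor p57, was at 6.87 and 4.98 CPM in Y against 11.8 and 23.2 CPM in EY, and at 5.25 and 6.08 CPM in N against 26.3 and 12.8 CPM in E. Of 40 p53 targets, 7 were lower and 0 higher, edgeR called 0, DESeq2 4 lower, and the median was -0.11. The 7 were 17.5% of the list, against 13.3% of all genes, and DESeq2 called 3.39% of all genes lower. Trp53inp1, which promotes p53-dependent death and autophagy, read 11.1 and 9.66 CPM in Y against 3.25 and 2.04 CPM in EY. Sesn1, a stress-induced inhibitor of mTORC1, read 31.4 and 22.99 CPM in Y against 16.7 and 10.1 CPM in EY. Ephx1, a microsomal epoxide hydrolase, read 51.4 and 47.4 CPM in Y against 29.7 and 26.4 CPM in EY. Trp73, the p53 relative, was at 9.11 and 7.65 CPM in Y against 4.47 and 3.21 CPM in EY. All 4 were lower in both EY libraries, while the E and N libraries overlapped for Trp53inp1 (13.3 and 11.2 CPM in N against 12.3 and 19.2 CPM in E) and Sesn1 (35.9 and 40.3 CPM in N against 35.5 and 47.3 CPM in E). Of 35 YAP targets, 2 were higher (5.71%) and 5 lower (14.3%) at an unadjusted p under 0.05, against 10.1% and 13.3% of all genes. Of these 35 targets edgeR called 1 (Lgals1), DESeq2 called 2 higher and 3 lower, and the median was -0.13 (from -0.30 without the upper limits per cell to 0.10 without Y library 2). Fjx1 was at 137 and 126 CPM in Y against 79.6 and 68.7 CPM in EY. Crim1 was at 57.8 and 76.2 CPM in Y against 43.9 and 32.2 CPM in EY, and in both genes the EY libraries were below the Y libraries (edgeR adjusted p of 0.064 to 0.10).

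Metabolic genes of the hypoxia response and of sterol synthesis had positive medians. Of 40 hypoxia and glycolysis genes, 15 were higher and 1 lower at an unadjusted p under 0.05, edgeR called 0, DESeq2 9 higher and 0 lower, and the median log2 fold change was 0.54 (from 0.12 to 0.80). Slc2a1, the glucose transporter GLUT1, was at 57.1 and 76.8 CPM in Y against 134 and 139.9 CPM in EY. Pfkfb3, an activator of glycolysis, was at 5.51 and 9.15 CPM in Y against 18.3 and 15.3 CPM in EY. Ero1l, an oxidase of the endoplasmic reticulum, read 25.98 and 37.97 CPM in Y against 62.2 and 77.5 CPM in EY. Hilpda, an inhibitor of lipid breakdown, read 18.8 and 12.2 CPM in Y against 34.5 and 40.7 CPM in EY, with a level in Ptprc-positive cells 15.8 times that in kept cells. The EY and Y libraries did not overlap in these 4 (edgeR adjusted p of 0.064 to 0.091). Of 23 cholesterol synthesis genes, 8 were higher and 0 lower, edgeR called 0, DESeq2 2 higher, and the median was 0.78 (from 0.36 without EY library 2 to 1.18 without Y library 2). The sterol enzyme genes Hsd17b7 and Msmo1 read 14.3 and 16.5 CPM in Y against 23.2 and 37.5 CPM in EY, and 33.6 and 54.5 CPM in Y against 69.9 and 118 CPM in EY. Mvd and Nsdhl, also of the pathway, had log2 fold changes of 1.33 and 0.78. Of 23 ATF4 amino acid genes, 5 were higher and 1 lower (21.7% and 4.35%, against 10.1% and 13.3% of all genes). For these, edgeR called 0, DESeq2 2 higher, and the median was 0.45 (from 0.22 without EY library 2 to 0.68 without Y library 2). The glutamine transporter Slc1a5 was at 16.6 and 18.6 CPM in Y against 26 and 33.6 CPM in EY. Slc3a2, the heavy chain of amino acid exchangers, was at 131 and 125 CPM in Y against 190.1 and 174 CPM in EY. The neutral amino acid transporter Slc1a4 lay the other way (37.4 and 28.02 CPM in Y against 23.2 and 16.03 CPM in EY), and Trib3, a pseudokinase induced by ATF4, was at 1.19 and 4.68 CPM in Y against 5.69 and 16.7 CPM in EY. Of 27 respiratory chain genes 2 were higher (7.41%, under the 10.1% of all genes), with edgeR and DESeq2 calls of 0 and 2 and a median of 0.04. The 2 were Ndufa4 (702 and 701 CPM in Y against 1068 and 1519 CPM in EY) and cytochrome c, Cycs (157 and 209 CPM in Y against 287 and 330.1 CPM in EY). Cox5a and Uqcrq, also of the chain, had log2 fold changes of 0.32 and 0.40. NRF2 and glutathione genes were divided, 6 higher and 7 lower of 34 (17.6% and 20.6%, against 10.1% and 13.3% of all genes). Here edgeR called 0 and DESeq2 2 higher and 3 lower, with a median of 0.08 (from -0.27 without EY library 1 to 0.22 without Y library 1). The aldo-keto reductase Akr1b8 was at 12.3 and 9.36 CPM in Y against 40.6 and 44.8 CPM in EY. The cysteine dioxygenase Cdo1 was at 14.4 and 14.7 CPM in Y against 6.91 and 2.07 CPM in EY, the carbonyl reductase Cbr3 at 141 and 110.0 CPM in Y against 70.3 and 76.96 CPM in EY. Gpx1, a glutathione peroxidase, was at 321 and 321 CPM in Y against 409.5 and 494 CPM in EY.

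The remaining lists held genes on both sides. In the partial EMT and invasion list, 6 of 36 were higher (16.7%) and 5 lower (13.9%) at an unadjusted p under 0.05, against 10.1% and 13.3% of all genes. There edgeR called 0, DESeq2 4 higher and 1 lower, with a median of 0.30 (from -0.04 without EY library 1 to 0.42 without Y library 1). Actn1, an actin crosslinker, was at 43.4 and 51.3 CPM in Y against 86.1 and 147 CPM in EY. The matrix protease gene Mmp2 was at 49.5 and 48.99 CPM in Y against 36.2 and 19.2 CPM in EY. Tgfbi, a matrix protein, was at 78.4 and 47.3 CPM in Y against 34.1 and 21.7 CPM in EY, with a level in Ptprc-positive cells 15.4 times that in kept cells. Among 22 EGF receptor family genes, 4 were higher (18.2%) and 2 lower (9.09%), edgeR called 0 and DESeq2 1 higher and 0 lower, with a median of 0.16 (from -0.12 without the upper limits per cell to 0.50 among cells with no cycling UMI). Nrg1, a ligand of ERBB3 and ERBB4, was at 29.4 and 42.8 CPM in Y against 49.2 and 89.2 CPM in EY. The receptor gene Erbb2 was at 26.4 and 26.7 CPM in Y against 17.9 and 17.8 CPM in EY. Phlda1, induced by receptor signalling, stood at 61.2 and 62.8 CPM in Y against 137 and 140.4 CPM in EY, and the ETS factor Etv4 at 6.53 and 9.96 CPM in Y against 9.75 and 20.8 CPM in EY. Immediate early genes had a median of -0.44 (from -0.70 without Y library 2 to -0.07 without Y library 1), with 4 of 24 lower (16.7%, against 13.3% of all genes) and 0 higher at an unadjusted p under 0.05, edgeR calling 0 and DESeq2 2 lower. Nr4a2, a nuclear receptor induced by stimuli, was at 25.5 and 19.3 CPM in Y against 8.94 and 10.5 CPM in EY. Fosb, an AP-1 subunit, was at 648 and 357 CPM in Y against 278 and 191 CPM in EY, and Egr1, a zinc finger factor, at 446 and 246 CPM in Y against 210.0 and 158 CPM in EY. In these 3 and in Myc, a growth factor-induced transcription factor at 58.4 and 49.1 CPM in Y against 43.5 and 41.5 CPM in EY, the EY libraries lay below the Y libraries. Regulators of cell death gave 6 higher and 1 lower of 26 (23.1% and 3.85%, against 10.1% and 13.3% of all genes), edgeR calling 0 and DESeq2 4 higher and 1 lower. Mlkl and Ripk3, the effector and kinase of necroptosis, were at 5.09 and 3.97 CPM in Y against 17.5 and 29.3 CPM in EY, and at 10.4 and 12.1 CPM in Y against 20.3 and 41.6 CPM in EY. Bak1, a pore-forming effector of apoptosis, was at 27.97 and 33.2 CPM in Y against 51.2 and 56.99 CPM in EY. The survival gene Bcl2 was at 12.5 and 10.8 CPM in Y against 4.88 and 2.86 CPM in EY. Both EY libraries were above both Y libraries for the first 3 and below them for Bcl2 (edgeR adjusted p of 0.060 to 0.069). Of 11 imprinted growth genes, 2 were higher and 1 lower (18.2% and 9.09%, against 10.1% and 13.3% of all genes). For these 11, edgeR called 0 and DESeq2 2, with a median of 0.32 (from -0.34 among cells with no cycling UMI to 0.92 without Y library 2). The noncoding RNA H19 was at 111 and 300.2 CPM in Y against 47.5 and 91.3 CPM in EY, and Peg3, a zinc finger gene, at 8.90 and 39.2 CPM in Y against 0.406 and 10.1 CPM in EY. The oncofetal RNA-binding gene Igf2bp1 was at 12.2 and 12.8 CPM in Y against 19.1 and 24.8 CPM in EY.

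Whether E6-E7 did something else with active YAP than without it was tested as an interaction, the difference between EY against Y and E against N. edgeR called 0 of 13555 genes (0%), 1562 had an unadjusted p under 0.05, and DESeq2 called 89, so no gene is described as particular to the combination. The values of the lists are set side by side. The papilla list had a median log2 fold change of -1.57 with active YAP and 0.14 without it, the stress list 1.41 and 0.27, and the hypoxia list 0.54 and -0.12. The interferon list had 1.36 and 2.51, the class I list 0.76 and 1.04 and the replication list 0.74 and 0.88. Lgals1, at 19.4 and 16.4 CPM in N against 14.7 and 19.3 CPM in E, had a log2 difference of -0.09 between E and N beside 2.37 between EY and Y. Its interaction gave an unadjusted edgeR p of 1.8e-05 and an adjusted p of 0.23. Paqr5, Exph5 and Cspg4 had log2 fold changes of -0.33, -0.05 and -0.23 between E and N.

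**Figure D5:**
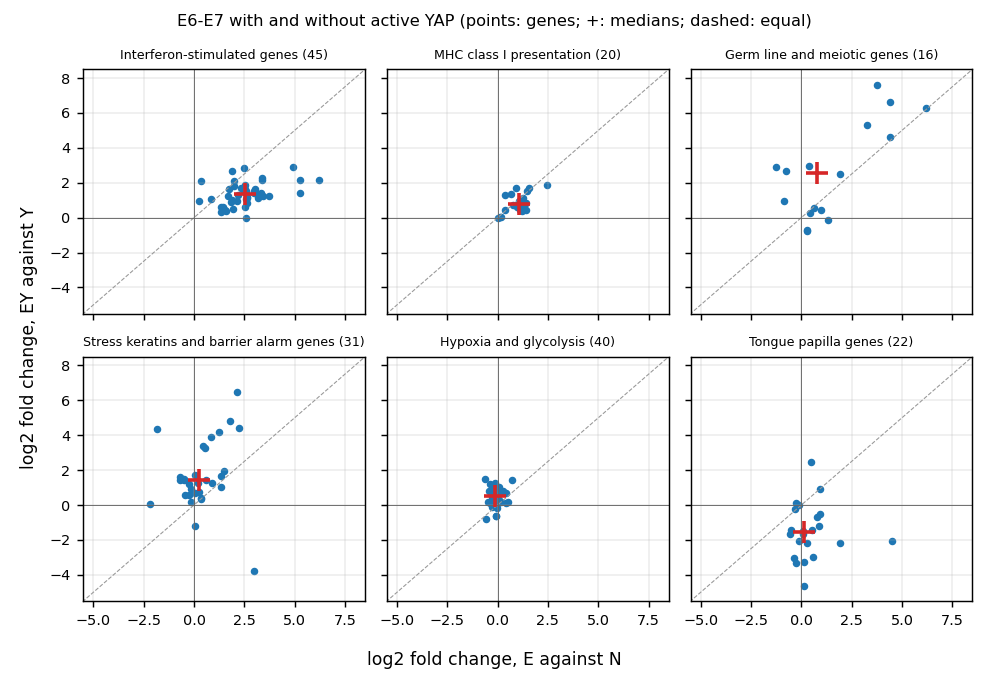
Log2 fold change of E against N (horizontal axis) and of EY against Y (vertical axis) for the tested members of 6 gene lists, with each list's medians at the red cross and a dashed line where both are equal. Interferon genes lie to the right of and mostly below the line (medians 2.51 and 1.36), and stress, hypoxia and papilla genes are spread along the vertical axis with medians near 0 on the horizontal axis.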

How the data were processed

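Counts of UMIs per gene and cell were deposited by the authors as filtered 10x Genomics 3′ matrices of 32285 features, made with Cell Ranger (5.0.0 in the matrix header) on mm10 per the submitters' processing notes. The labels and the study's methods name different kit chemistries. No value was normalised before deposit, and the barcode and feature files hold names only. Cells were chosen by the limits given in the opening, UMIs of kept cells were summed per library, and genes were tested with edgeR 4.0.16 (R 4.3.3; filterByExpr, TMM scaling, quasi-likelihood fit with a mean per group over all 8 libraries, Benjamini-Hochberg adjustment), with DESeq2 1.42.0 as an alternative and both checked on simulated data, where each called more unchanged genes than its threshold implies and DESeq2 more of them than edgeR. Kept UMIs per library were 2454816 to 37020044 in EY and Y. Library numbers follow accession order and pair nothing. No doublet caller was run, and the upper limits on genes and UMIs were the only guard against doublets. Named genes were the 12 per direction with the smallest p, at least 20 CPM, no overlap between groups and a level in Ptprc-positive cells at most 5 times that in kept cells (used where under 5 called genes in a direction passed), up to 4 members per list with the smallest p and at least 5 CPM, and Yap1, Mcm2, Cdkn2a and Cdkn1a; 1 of them is not reported here. The members, the 25 gene lists and the marker lists were chosen with earlier results of these data known. Gene positions came from GENCODE vM21 (GRCm38), which held 99.8% of features, and start-site windows from RefSeq. Alternatives changed the tool, scaling, filters, cell limits and libraries.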

Additional observations from a re-analysis of the deposited data

How the results depend on the processing

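Of the 122 named genes, the log2 fold change kept its sign under every alternative in all but 5: Cdkn1a was 0.11 without cells with leukocyte UMIs, Sprr2i -0.78 and Sprr1b -0.089 without the upper limits on cells, and Igf2bp1 -0.34 and H1f0 0.37 among cells with no cycling UMI. The 6 genes called between EY and Y became 0 with only the EY and Y libraries, 880 with DESeq2, 2117 without the filter on low counts, 669 without upper limits, 163 with cells of at least 200 genes, 1046 with keratins of at least 2% of UMIs, 245 without cells with gland markers, 315 without cells with leukocyte UMIs, 30 among cells with no cycling UMI, 11 among cells with more basal keratin, and 0 to 1456 leaving out 1 library. Without cells with leukocyte or neutrophil UMIs, an alternative chosen after seeing the data, 466 were called. The 3 list members called became, in the same settings, 0, 119, 295, 73, 26, 115, 38, 44 and 15, the same within 1.5 times with more basal keratin, 51 in the added alternative, and 0 to 101 leaving out 1 library. For E against N, 33 became 131 with DESeq2, 367 without the filter, 66 without upper limits and 0 to 29 leaving out 1 library. The interaction count of 0 became 89 with DESeq2, 672 without the filter, 20 without upper limits, 1 without cells with leukocyte UMIs, 1 among cells with no cycling UMI, 10 in the added alternative and 0 to 30 leaving out 1 library. RLE scaling, library totals alone and thinning every library to the smallest total gave 5 calls each between EY and Y. The difference of 24.4 points in the share of cells with UMIs of the G2/M list was 10.8 at a minimum of 1 UMI, 0.317 without thinning, and 17.8 to 31.0 leaving out 1 library. The cause of these shifts was not tested. No paired analysis was possible because the titles appear to number animals and the library numbers only follow accession order. EY library 1, with 170 cells, limits precision most: a count of 0 there allows up to 1.22 CPM.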

Other observations

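Krt8, the usual partner of Krt18 and here a gene of the gland and duct marker list, was named after its values were seen and stood at 4.20 and 1.01 CPM in Y against 163 and 37.98 CPM in EY, while the duct gene Krt19 stood at 7.25 and 30.8 CPM in Y against 18.7 and 40.02 CPM in EY. The whole list of 13 gland and duct markers summed to 112 and 56.7 CPM in Y against 429 and 181 CPM in EY, and without cells that carried gland markers the log2 fold change of Krt18 was 3.79 against 3.62 among all kept cells. Whether Krt8 and Krt18 were read in gland-derived or in surface cells was not tested. Markers of other cells summed as follows. Macrophage, monocyte and dendritic genes gave 107 and 84.5 CPM in Y against 212 and 62.01 CPM in EY. Erythroid genes gave 272 and 577 CPM in Y against 392 and 1.84 CPM in EY, with EY library 2 below the other 3. Fibroblast genes, almost all of it Dcn, gave 821 and 335 CPM in Y against 253 and 29.98 CPM in EY. The lists of B and plasma cells, endothelium, melanocytes, nerve and taste buds each summed to under 10 CPM in all 4 libraries, with Ms4a1, Cdh5, Cldn5, Tyr, Tyrp1, Car4, Gnat3 and Trpm5 at 0, and muscle genes to 10.2 to 21.1 CPM.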
